A study of Mus musculus with 6 samples.

Results

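The 10 genes described here, *Dcx*, *Dclk1*, *Pafah1b1*, *Nde1*, *Ndel1*, *Tubb2b*, *Tubb3*, *Tubb5*, *Map1b* and *Cdk5*, act on microtubules in migrating cortical neurons, and most of them are known from human malformations of the cortex. They were chosen by name, as the rows of the expression table that carry these symbols, and all 10 were found among its 59484 features. The table comes from polyA+ RNA-seq of mouse cortex at embryonic day 18.5 (E18.5), with 3 libraries labelled wt (wild type, WT) and 3 labelled Sam68:Slm2 ko (double knockout, dKO). The dKO lacks Sam68 and SLM2, paralog RNA-binding proteins of the STAR family that regulate splicing and are encoded by *Khdrbs1* and *Khdrbs3*. Both genotypes are germline, so every cell of the embryo carries them. The dKO embryos were bred by intercrossing Sam68+/-:Slm2-/- mice, which gives no wild-type littermates, so genotype and litter cannot be told apart. The labels do not say whether each library is a separate embryo, nor its sex, so the *P*-values measure the spread between these libraries.

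Newborn projection neurons leave the ventricular zone and climb along radial glial fibres into the cortical plate. A leading process pulls ahead, and dynein, a motor that walks on microtubules, then draws the nucleus towards the centrosome. LIS1 (encoded by *Pafah1b1*) regulates dynein together with its partners NDE1 and NDEL1, doublecortin (*Dcx*) and its relative DCLK1 bind and stabilise microtubules, MAP1B does so in growing axons, and the kinase CDK5 phosphorylates several of these proteins. *Tubb2b*, *Tubb3* and *Tubb5* encode β-tubulins, which pair with α-tubulin to form the microtubule itself. Mutations in *PAFAH1B1* and *DCX* cause lissencephaly, a cortex without its folds, and mutations in tubulin genes cause a group of malformations called tubulinopathies.

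The β-tubulin members are the most similar to each other in sequence, and their messages share a feature at the start of the coding sequence. Cells adjust tubulin mRNA to the amount of free tubulin, and TTC5 reads the nascent amino terminus of tubulin to do so. The first 30 coding bases of the β-tubulin members, of the near copy *Tubb2a* and of the α-tubulin gene *Tuba1a* are shown because they encode this end of the protein. They were read 5′ to 3′ on the coding strand from GENCODE release M21 transcripts (mm10), and capitals mark the first 12 bases.
Tubb2b: ATGCGAGAGATCgtgcacattcaggcgggc
Tubb3: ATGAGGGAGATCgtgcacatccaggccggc
Tubb5: ATGAGGGAAATCgtgcacatccaggccgga
Tubb2a: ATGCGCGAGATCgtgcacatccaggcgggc
Tuba1a: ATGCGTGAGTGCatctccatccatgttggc
These bases lie in the first coding exon at chr13:34130204-34130233 (minus strand) for *Tubb2b*, chr8:123411606-123411635 (plus strand) for *Tubb3*, chr17:35838024-35838053 (minus strand) for *Tubb5* and chr13:34077900-34077929 (minus strand) for *Tubb2a*. In *Tuba1a*, on the minus strand of chromosome 15, an intron follows the start codon. The letters shared by the 3 members are ATGNGNGANATC, with N where they differ, searched on the coding strand at the coding start alone. *Tubb2a* matches them and *Tuba1a* does not. Of 21568 genes with a coding start, 11 (0.051%) match, and 7 of these 11 are β-tubulin genes. *Tubb6*, another β-tubulin gene, is not among them. Letters were compared here, not the amino acids they encode. A match describes these letters and was not tested as a regulatory site.

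The other end of the coding sequence carries the tail in which tubulin isotypes differ most. Its last 60 bases before the stop codon are shown because they separate the members from each other, while *Tubb2b* and *Tubb2a*, which lie next to each other on chromosome 13, differ there at 3 positions, given in capitals.
Tubb2b: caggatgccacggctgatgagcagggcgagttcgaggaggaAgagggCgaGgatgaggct
Tubb2a: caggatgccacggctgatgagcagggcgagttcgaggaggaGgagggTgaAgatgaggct
Tubb3: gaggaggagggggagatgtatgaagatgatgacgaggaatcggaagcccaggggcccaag
Tubb5: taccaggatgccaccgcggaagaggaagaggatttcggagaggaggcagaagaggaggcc
They end the last coding exon, at chr13:34127474-34127533 and chr13:34074471-34074530 (minus strand), chr8:123421620-123421679 (plus strand) and chr17:35834985-35835044 (minus strand), in the order shown. Over the whole coding sequence *Tubb2b* and *Tubb2a* are 96.5% identical and share an unbroken run of 551 bases. *Tubb2b* is 84.5% identical to *Tubb3* and 84.2% to *Tubb5*, with shared runs of at most 45 and 50 bases, and *Tubb3* and *Tubb5* are 82.6% identical. The other related members are further apart, with 75.6% for *Dcx* and *Dclk1* and 66.4% for *Nde1* and *Ndel1*. A read of 150 bases can therefore be assigned to most members: of the 150-base windows in the coding transcripts, 408 of 2033 (20.069%) of *Tubb2b* also occur in *Tubb2a*, and 0 occur in another gene for the other 9 members. How the authors counted reads that fit both *Tubb2a* and *Tubb2b* is not given in the sources used here, so the split between these genes is uncertain. Exons of another gene overlap 77 of the 3205 exon bases of *Nde1* (*Marf1*, opposite strand), and 87 (*Gm42609*) and 27 (*Gm21954*) of the 15296 of *Dclk1*. The other 8 members have no such overlap.

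The levels of the 10 genes covered a wide range. Per kb of exon, wild-type cortex held 165020 ± 7100 normalized counts of *Tubb2b* (SD, n = 3), 76722 ± 3150 of *Tubb3* and 68522 ± 1370 of *Tubb5*. The length used is that of all annotated exons of a gene, which can exceed its longest coding transcript. These lengths were 3327 and 2649 bases for *Tubb5*, 15296 and 7962 for *Dclk1*, and both 1868 for *Tubb3*. The order of close neighbours, such as *Tubb3* and *Tubb5*, depends on this choice of length. A normalized count here is a count of reads on a gene that the authors scaled to make the libraries comparable, and 1 read was worth between 0.8767 and 1.16 of them. *Map1b* followed at 5870 ± 1590 per kb and *Dcx* at 983 ± 64.0. *Cdk5* had 921 ± 56.5, *Dclk1* 777 ± 120 and *Pafah1b1* 729 ± 61.2 per kb, and in this stretch from *Dcx* to *Pafah1b1* each gene overlapped its neighbour in wild-type libraries. *Ndel1* (541 ± 13.6) and *Nde1* (176 ± 24.4) stood below all of them without overlap. By level, *Tubb2b* was 2.15 times *Tubb3* and *Ndel1* was 3.07 times *Nde1*. In dKO libraries every neighbouring pair that was separate in wild type was separate too, and *Dcx* was also separate from *Cdk5*. Among all 59484 features, unscaled for length, *Tubb2b* ranked between 3 and 5 in every library, *Tubb5* between 6 and 8 and *Tubb3* at 11 or 12.

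Loss of Sam68 and SLM2 was examined for its effect on the mRNA level of each gene. The β-tubulin members were higher in every dKO library than in every WT library, by 11.9% to 16.8%, and the other 7 members overlapped between the genotypes. By limma, the adjusted *P*-value was under 0.05 for 0 of the 10 members, against 0.1% of the 18970 features tested (19 features). Likewise 0 of 10 passed with edgeR (0.0843% of features) and with DESeq2 (1.07%), both run on the reads recovered from the table. At an unadjusted *P*-value under 0.05, limma had 4 members, *Dcx*, *Tubb2b*, *Tubb3* and *Tubb5*, all higher in dKO cortex, where 4.92% of all features were higher and 6.58% lower. At that threshold edgeR had 3 members, without *Tubb5*, and 5.28% of features higher, and DESeq2 had 4 members and 4.93% of features higher. The estimates of 8 of the 10 members were above 0, with a median log2 fold change of 0.08, against 9603 of the 18970 features and a median of 0.0. The members were measured in the same libraries and are not independent of each other. Fewer cells of a type and less RNA per cell cannot be told apart in bulk tissue.

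**Figure D1:**
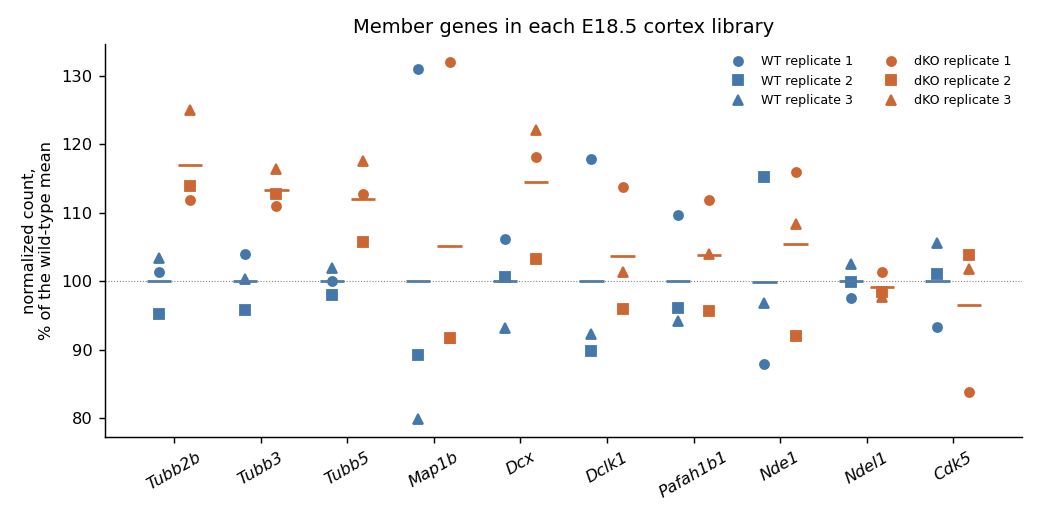
Normalized count of each member gene in each library as a percentage of the wild-type mean of that gene. Points are libraries (blue WT, orange dKO, with the symbol giving the replicate number) and bars are means of 3. Tubb2b, Tubb3 and Tubb5 are the genes whose dKO libraries all lie above the WT libraries. Replicate 1 of both genotypes is high for Map1b.

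*Tubb2b* (GSMG0010529, mm10 chr13:34127008-34130358, minus strand), the main β-tubulin of migrating neurons and one whose mutation causes polymicrogyria, had 383645, 360332 and 391690 normalized counts in the WT libraries and 423423, 431233 and 472995 in the dKO libraries. The lowest dKO library lay above the highest WT library. The means were 378556 ± 16287 and 442550 ± 26654 (SD, n = 3 each), which is 0.22 on the log2 scale (standard error 0.07, 95% interval 0.06 to 0.38, adjusted p = 0.345 from limma). In percent, the estimate was 16.8 with an interval from 4.6 to 30.5.

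*Tubb3* (GSMG0037966, chr8:123411549-123422009, plus strand) encodes the neuron-specific isotype that is stained as a marker of young neurons. Its WT libraries had 148988, 137245 and 143717 normalized counts and its dKO libraries 159016, 161506 and 166759, again without overlap. The log2 fold change was 0.18 (standard error 0.07, interval 0.03 to 0.33, adjusted p = 0.385 from limma), which is 13.4%.

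*Tubb5* (GSMG0017474, chr17:35833920-35838301, minus strand) is the β-tubulin of both progenitors and neurons, and its mutation is linked to microcephaly. It had 227934, 223427 and 232556 normalized counts in WT and 257161, 241211 and 267818 in dKO libraries. These do not overlap either, and the log2 fold change was 0.16 (standard error 0.07, interval 0.01 to 0.31, adjusted p = 0.406 from limma), which is 11.9%. An exact two-sided permutation test gave p = 0.1 for each of these 3 genes, the smallest value that 3 libraries against 3 allow.

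Every dKO library was above every WT library for 3 of the 10 members and for 7.89% of all features, and below for 0 members and 8.48% of features. This count depended on the libraries and on the scaling. Without WT replicate 1, 6 members had every dKO library above (12.9% of features), since *Dcx*, *Dclk1* and *Map1b* joined the β-tubulins, and the same 6 had every dKO library above without both libraries numbered 1 (21.2% of features). In that setting *Ndel1* was separate in the opposite direction, lower in dKO, as 19.9% of features were. With each library scaled to its total instead, *Tubb2b* and *Tubb3* stayed separate and *Tubb5* overlapped. The median log2 fold change of all features was then -0.06, against 0.0 in the main fit. The share of all features that were separate was not counted with this scaling or with quantile normalization. With quantile normalization 0 of 10 were separate, and the log2 fold changes were 0.15 for *Tubb2b*, 0.10 for *Tubb5* and 0.02 for *Tubb3*. Quantile normalization replaces each value by one set by its rank, and the ranks of these genes hardly moved between libraries.

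**Figure D2:**
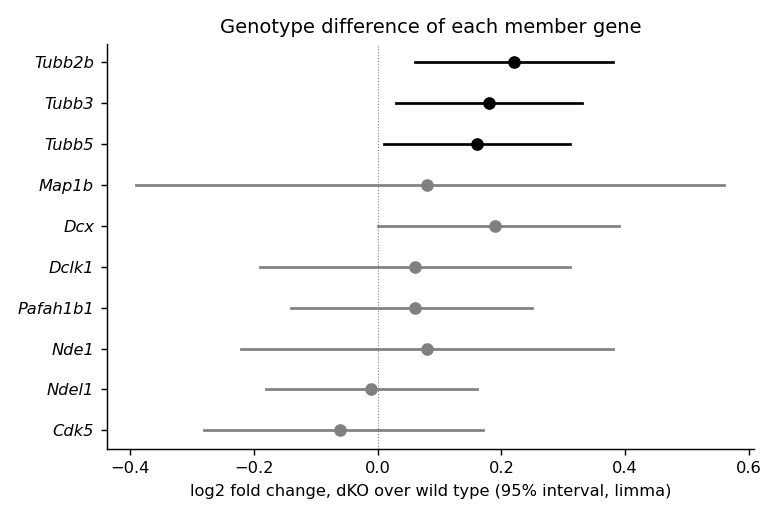
Log2 fold change (dKO over wild type) of each member gene with its 95% interval from limma, 3 libraries against 3. Black marks the genes whose genotypes do not overlap. Intervals of the β-tubulin members lie above 0 and the widest interval is that of Map1b, from -0.39 to 0.56. These intervals are not adjusted for the number of genes.

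*Dcx* (GSMG0042900, chrX:143855843-143933316, minus strand) encodes doublecortin, which is made by migrating and newly settled neurons. It had 13201, 12509 and 11588 normalized counts in WT and 14696, 12845 and 15181 in dKO libraries, so dKO replicate 2 fell inside the WT range. The log2 fold change was 0.19 (standard error 0.09, interval 0.00 to 0.39, unadjusted p = 0.0492 and adjusted p = 0.432 from limma). Its size in percent was 14.4, close to those of the β-tubulins. Over the fits with libraries left out, the estimate ran from 0.14 to 0.27 on the log2 scale. It was highest without dKO replicate 2, where the genotypes no longer overlapped because the library inside the WT range was removed. The share of all features separate in that fit was not counted.

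*Dclk1* (GSMG0024316, chr3:55242364-55539066, plus strand), the doublecortin relative with a kinase domain, had 14003, 10684 and 10963 normalized counts in WT and 13525, 11401 and 12043 in dKO libraries. Replicate 1 was the highest library of both genotypes. The log2 fold change was 0.06 (standard error 0.11, interval -0.19 to 0.31, adjusted p = 0.854 from limma). The log2 ratio of *Dcx* to *Dclk1* was 0.07 ± 0.16 in WT and 0.21 ± 0.11 in dKO libraries (SD, n = 3 each), a difference of 0.13 with exact permutation p = 0.4.

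The genes of the LIS1 complex differed little in their means. *Pafah1b1* (GSMG0006967, chr11:74673950-74724670, minus strand), for which a single lost copy disturbs migration, had 7686, 6740 and 6606 normalized counts in WT and 7843, 6712 and 7295 in dKO libraries. The log2 fold change was 0.06 (interval -0.14 to 0.25, adjusted p = 0.829 from limma), so that in percent the interval ran from -9.4 to 19.2. *Ndel1* (GSMG0006846, chr11:68821449-68871858, minus strand), the LIS1 and dynein partner of postmitotic neurons, varied little, with a coefficient of variation of 2.51% in WT and 1.91% in dKO libraries. It had 1718, 1759 and 1806 normalized counts in WT and 1784, 1734 and 1721 in dKO libraries, a log2 fold change of -0.01 (interval -0.18 to 0.16, adjusted p = 0.965 from limma). Scaled to library totals, *Ndel1* was lower in every dKO library than in every WT library, with a log2 fold change of -0.08. The median of all features with this scaling was -0.06, and the share of features lower in every dKO library was not counted there.

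*Nde1* (GSMG0014703, chr16:14163275-14192921, plus strand) is the progenitor counterpart of *Ndel1*, needed for the divisions of radial glia. It had 496, 650 and 546 normalized counts in WT and 654, 519 and 611 in dKO libraries, which overlap. The log2 fold change was 0.08 (standard error 0.14, interval -0.22 to 0.38, adjusted p = 0.844 from limma), and it was -0.08 without the libraries numbered 1. The log2 ratio of *Nde1* to *Ndel1* was -1.65 ± 0.19 in WT and -1.56 ± 0.16 in dKO cortex (SD, n = 3 each, exact permutation p = 0.8).

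*Map1b* (GSMG0011019, chr13:99421464-99516602, minus strand), the large microtubule-associated protein of growing axons, varied most between libraries. It had 121751, 82956 and 74335 normalized counts in WT and 122783, 85346 and 85287 in dKO libraries, so that replicate 1 was far above the others in both genotypes. Its log2 fold change was 0.08 (standard error 0.21, interval -0.39 to 0.56, adjusted p = 0.897 from limma). The estimate was 0.29 without WT replicate 1 and -0.09 without dKO replicate 1, so its sign depended on the library left out. *Cdk5* (GSMG0030253, chr5:24418242-24423542, minus strand) was the member with the lowest estimate. It had 1864, 2016 and 2107 normalized counts in WT and 1673, 2074 and 2032 in dKO libraries, and its log2 fold change was -0.06 (standard error 0.10, interval -0.28 to 0.17, adjusted p = 0.85 from limma). Its activators *Cdk5r1* and *Cdk5r2*, without which the kinase is inactive in neurons, were not matched to a row and are not analysed here.

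Replicate 1 was highest for the longest members in WT, and less regularly so in dKO. On the log2 scale, WT replicate 1 stood above the mean of the other WT libraries by 0.63 for *Map1b*, 0.37 for *Dclk1*, 0.20 for *Pafah1b1* and 0.13 for *Dcx*, which are the 4 members with the most exon bases (15846, 15296, 9620 and 12647). The dKO replicate 1 stood above its own group by 0.53, 0.21, 0.16 and 0.07 for the same genes. For *Cdk5*, with 2168 exon bases, it lay below, with differences of -0.15 in WT and -0.29 in dKO. *Nde1*, with 3205 exon bases, went against this order in dKO, at 0.21, and was at -0.27 in WT. Over the 13974 tested features that a GENCODE gene of the same symbol overlaps, the median difference went from -0.13 in WT and -0.21 in dKO below 2000 exon bases (1756 features) to 0.10 and 0.12 at 8000 and more (2573 features). The β-tubulin members are short, and their replicate 1 differed from its group by between -0.09 and 0.08. The median genotype difference was between 0.0 and 0.03 in each length class. What sets these libraries apart was not tested.

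**Figure D3:**
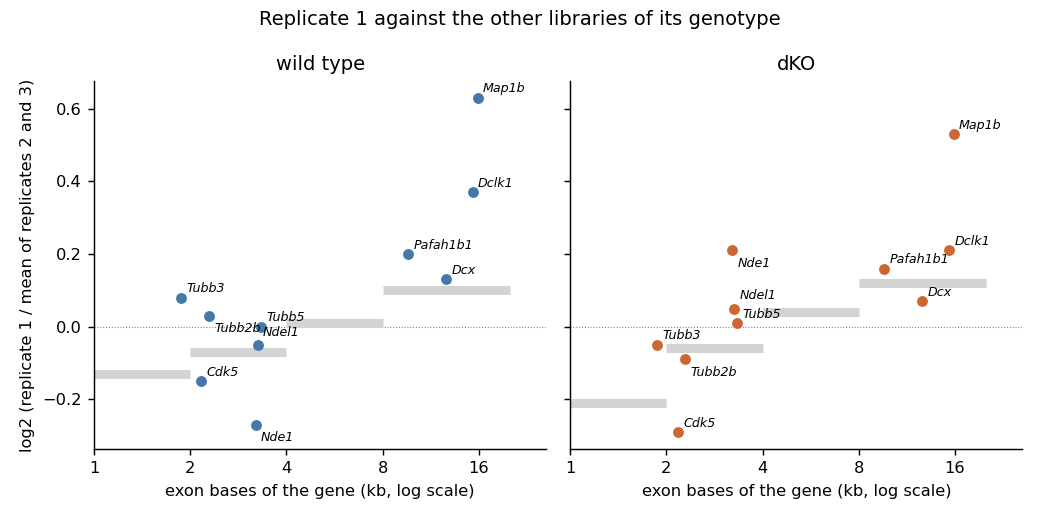
Log2 difference between replicate 1 and the mean of replicates 2 and 3 of its genotype (vertical axis) against the exon bases of each member gene (horizontal axis, log scale), for wild type on the left and dKO on the right. Points are member genes and grey bars are medians of 13974 tested features in 4 length classes, the outer ones drawn from 1 kb and to 20 kb. The longest members, Map1b and Dclk1, lie highest in wild type.

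The balance between the β-tubulin isotypes was then compared, since isotypes are exchanged as neurons mature. The log2 ratio of *Tubb2b* to *Tubb3* was 1.36, 1.39 and 1.45 in WT and 1.41, 1.42 and 1.5 in dKO libraries, a difference of 0.04 (exact two-sided permutation p = 0.4). The ratio of *Tubb3* to *Tubb5* differed by 0.02 (p = 0.5, same exact test) and that of *Tubb2b* to *Tubb2a* by 0.15 (p = 0.2). All 5 ratios overlapped between the genotypes, and their adjusted values from this permutation test, by the Benjamini-Hochberg method over the 5 pairs, lay between 0.625 and 0.8. With 3 libraries against 3 no ratio could have reached 0.05.

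*Tubb2a* and *Tubb2b* were also summed, which removes the uncertainty over their split where each shared read was counted once. The sum was 438090 ± 22608 in WT and 505174 ± 28888 in dKO libraries (SD, n = 3 each), higher by 0.21 on the log2 scale without overlap (exact permutation p = 0.1). Scaled to library totals the genotypes overlapped for this sum, with a log2 difference of 0.14 (exact permutation p = 0.2). *Tubb2b*, *Tubb3* and *Tubb5* together held 2.14%, 2.04% and 2.21% of the normalized counts of the WT libraries and 2.26%, 2.29% and 2.46% of the dKO libraries. On this share, which does not depend on the size factors, the genotypes do not overlap. The log2 difference was 0.13, compared with 0.20 on normalized counts. On library totals the median log2 fold change of all features was -0.06, and the share of separate features was not counted. The partner subunit, α-tubulin, had estimates in the same direction as the β-tubulins. The 5 listed α-tubulin genes summed to 834151 ± 9862 in WT and 919386 ± 50732 in dKO cortex, a log2 difference of 0.14 without overlap (exact permutation p = 0.1). On library totals this α-tubulin difference was 0.08 and the genotypes overlapped, and with quantile normalization it was 0.0. The quantile value cannot show a difference. *Tuba1a*, which holds most of this sum, ranked first in every library and so receives the same value in each.

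**Figure D4:**
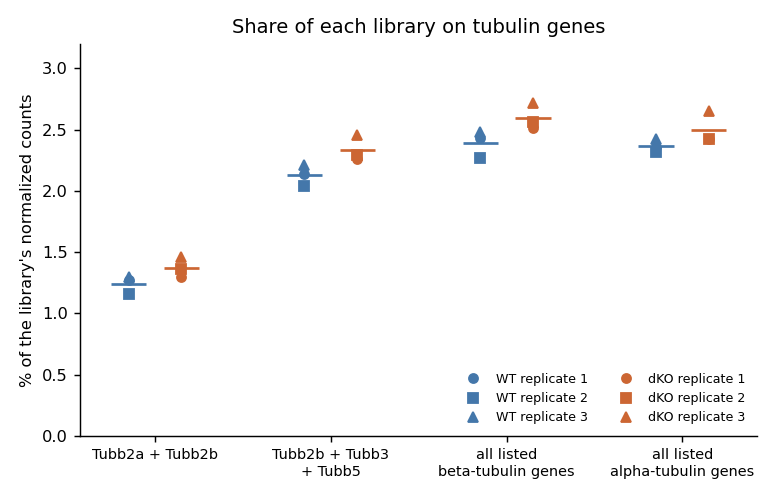
Percentage of the normalized counts of each library that fell on tubulin genes. Points are libraries (blue WT, orange dKO, with the symbol giving the replicate number) and bars are means of 3. For Tubb2b, Tubb3 and Tubb5 together the WT libraries lie between 2.04% and 2.21% and the dKO libraries between 2.26% and 2.46%.

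Other genes of the same machinery were taken from lists of 128 genes, of which 125 were matched to a row and 124 had a mean of at least 10 normalized counts and were tested. The adjusted *P*-value was under 0.05 for 0 of the 124 by limma and for 0 by edgeR. By limma's unadjusted *P*-value under 0.05, 11 were higher and 3 lower, together 11.3% of the list against 11.5% of all features. DESeq2 called 1 of them, *Ttc5*, and 1.07% of all features. *Ttc5*, the reader of the nascent tubulin amino terminus introduced above, had 1514, 1771 and 1752 normalized counts in WT and 2055, 2476 and 2297 in dKO libraries. The groups do not overlap, and the log2 fold change was 0.44 (standard error 0.10, interval 0.22 to 0.66), with an adjusted p of 0.228 from limma and 0.019 from DESeq2. Under the other settings its adjusted p lay between 0.0849 and 0.678.

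Among the other tubulins, 2 of 13 (15.4%) had an unadjusted *P*-value under 0.05 by limma and both were higher. Of all features 4.92% were higher and 6.58% lower at that threshold. *Tubb4b*, a broadly expressed β-tubulin, had 9400 ± 387 and 10737 ± 113 normalized counts in WT and dKO cortex (SD, n = 3 each), and its log2 fold change was 0.19 (adjusted p = 0.382 from limma). *Tubb1*, the β-tubulin of platelets, was close to the floor of the test, with at most 20.9 normalized counts in any library. *Tuba1a*, the α-tubulin mutated in lissencephaly and the feature with the most counts in every library, had 782657, 768043 and 785592 normalized counts in WT and 841648, 823166 and 912385 in dKO libraries. Its log2 fold change was 0.14 (interval -0.01 to 0.29, adjusted p = 0.457 from limma), and of its 150-base windows 54.716% also occur in other genes. *Tubb2a* had a log2 fold change of 0.08 (adjusted p = 0.767 from limma) and *Tubg1*, which encodes the γ-tubulin that starts microtubules, one of 0.08 (adjusted p = 0.684 from limma).

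The microtubule-associated proteins went both ways, with 2 of 34 higher and 3 lower at an unadjusted *P*-value under 0.05. Together these are 14.7% of the list, against 11.5% of all features, and the median log2 fold change was 0.0. *Map6d1*, a relative of the microtubule-stabilising MAP6, had 298, 243 and 292 normalized counts in WT and 172, 201 and 193 in dKO libraries, a log2 fold change of -0.55 (adjusted p = 0.301 from limma) without overlap. The dendritic *Map2* had a log2 fold change of 0.20 (adjusted p = 0.421), the axonal *Mapt* (tau) one of -0.04 (adjusted p = 0.896) and *Dclk2*, the third doublecortin-family gene here, one of 0.04 (adjusted p = 0.882), all from limma.

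Among the motors that pull on these microtubules, 0 genes had an adjusted *P*-value under 0.05 by limma, against 0.1% of all features. In the dynein and dynactin list 18 of 21 estimates were above 0, against 9603 of the 18970 features, and all lay between -0.33 and 0.19. An unadjusted *P*-value under 0.05 was found for 1 of the 21 genes (4.8%, against 11.5% of all features). This gene was *Pafah1b2*, which encodes a catalytic partner of LIS1 (log2 fold change 0.19, adjusted p = 0.414 from limma). The dynein heavy chain *Dync1h1* had 0.01 (standard error 0.23, adjusted p = 0.993 from limma). Of 15 kinesins 3 (20.0%) were higher at that threshold, against 4.92% of all features. The kinesin estimates lay between -0.06 and 0.38. *Kif21a* had the smallest *P*-value, with 2193 ± 81.8 and 2600 ± 314 normalized counts (SD, n = 3 each) and a log2 fold change of 0.24 (adjusted p = 0.396 from limma). The tubulinopathy-related motors *Kif2a* and *Kif5c* had log2 fold changes of 0.10 (adjusted p = 0.664) and 0.05 (adjusted p = 0.871 from limma). Among 23 other migration genes 0 had an unadjusted *P*-value under 0.05 with limma, against 11.5% of all features. The smallest was that of *Rnd2*, a GTPase needed for radial migration (log2 fold change 0.35, adjusted p = 0.438 from limma).

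**Figure D5:**
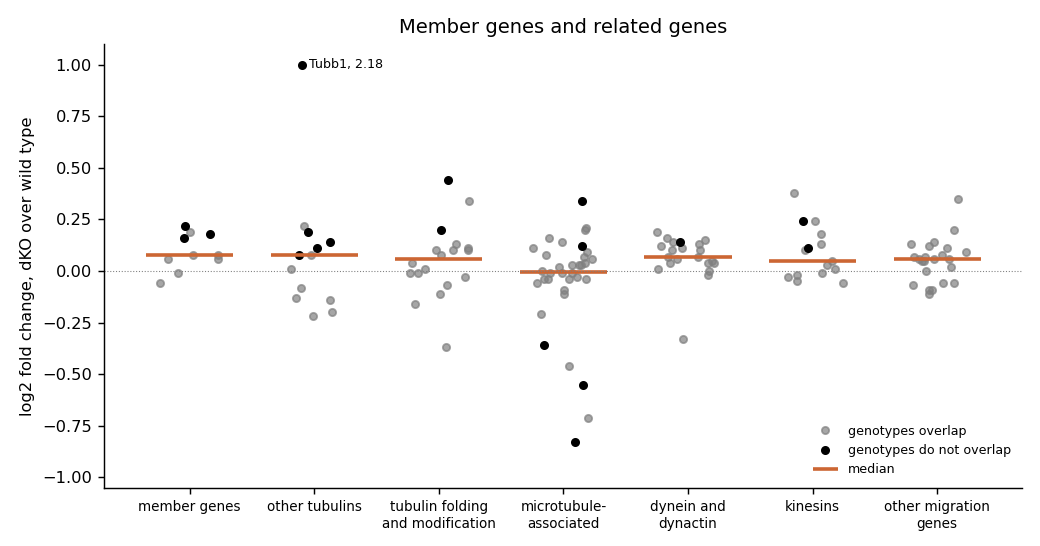
Log2 fold change (dKO over wild type) of each tested gene in the member list and in the 6 related lists. Each point is a gene, black where the genotypes do not overlap, and orange bars are medians, which lie between 0.0 and 0.08. Tubb1, at 2.18, is drawn at the upper edge.

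The libraries held between 31837922 and 40896541 reads. *Khdrbs1* had 8213 ± 232 normalized counts in WT and 152 ± 41.5 in dKO cortex, and *Khdrbs3* 13841 ± 1252 and 6652 ± 366 (SD, n = 3 each). Markers of neurons (9 of 9 detected in every library) summed to between 51701 and 62400 in WT and between 51381 and 59357 in dKO libraries, with a median log2 fold change of -0.03. The 6 projection neuron markers, among them *Neurod2* and *Tbr1*, had a median of 0.28 and overlapping sums of 94082 to 126777 and 105764 to 139605. Markers of intermediate progenitors (4 genes, *Eomes*, *Neurog2*, *Insm1* and *Btg2*) summed to between 7433 and 9825 in WT and between 10507 and 13832 in dKO libraries. The 5 proliferation genes summed to between 3428 and 3707 and between 4152 and 4909. In the other direction, 4 oligodendrocyte lineage markers summed to between 6600 and 11467 in WT and between 3592 and 6205 in dKO libraries. The sums of the meningeal, endothelial, microglia, interneuron, radial glia and erythroid lists overlapped between the genotypes. Their median log2 fold changes were -0.76, -0.39, -0.16, -0.02, 0.04 and 0.2 in that order. Choroid plexus markers stayed at or below 110 in sum, and 2 of the 5 were at 0 in some library. The intermediate progenitor and proliferation sums were thus higher in every dKO library, as the β-tubulin members were, and the oligodendrocyte sum was lower. Taken singly, 3 of the 4 intermediate progenitor and 3 of the 5 proliferation genes were above in every dKO library. Of the 4 oligodendrocyte markers, 1 was below in every dKO library. Among all features 7.89% were above and 8.48% below by this rule. Whether these sums vary with the β-tubulin levels from library to library, and their part in the result, was not tested.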

How the data were processed

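PolyA+ RNA of E18.5 cortex was sequenced by the authors in a paired-end format from TruSeq Stranded mRNA libraries. The submitters' processing notes name STAR 2.7.5a, SAMtools, Picard, FastQC and DESeq2 with mm10. The authors deposited 1 table of signal per FAST database gene, read counts scaled by library size factors. The counting program and strand setting are not given in the sources used here. In every library 100% of positive values were whole multiples of the value of 1 read (tolerance 0.01), from which reads were recovered.

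Genotypes, taken from the labels, were compared with limma 3.58.1 (R 4.3.3, eBayes with trend and robust) on the scale log2(normalized count + 1), which understates changes of low genes, for the 18970 features whose mean was 10 or more. Benjamini-Hochberg adjusted *P*-values under 0.05 were called. For ratios and sums, an exact two-sided permutation test was used. Exon lengths, overlaps and sequences came from GENCODE M21, Python 3.11.15 with pandas 2.3.3 and numpy 2.4.6 being used. Alternatives were pseudocounts of 0.1 and 10, other filters, quantile, TMM and total-count scaling, limma without trend and robust, edgeR 4.0.16 and DESeq2 1.42.0 on recovered reads, a replicate block and left-out libraries. Total-count scaling, the counts of separate genes under other settings and unadjusted counts from edgeR and DESeq2 were added after seeing the data. The fit was tested on simulated data with 200 changed features. Their changes were far larger than those of the members and no replicate effect was put in. This test therefore does not bear on differences of the members' size.

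The members and lists were chosen with earlier results of these data known. Genes named are the members, the targeted genes, related genes listed for their role and the gene with the smallest *P*-value in each related list. Of these, *Cdk5r1* and *Cdk5r2* were not matched to a row. *Tubb1*, *Tubb6*, *Marf1*, *Gm42609* and *Gm21954* were named after their values were seen. Splicing was not analysed here.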

Additional observations from a re-analysis of the deposited data

How the results depend on the processing

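Across 19 other settings for each of the 10 members (190 values), 0 members passed the adjusted threshold, 178 values had the sign reported and 12 had the other. With quantile normalization *Dclk1* and *Pafah1b1* were at -0.02, *Tubb2a* at -0.05, *Dclk2* and *Kif5c* at -0.02 and *Dync1h1* at -0.05. With total-count scaling *Dclk1* was at -0.0043, *Pafah1b1* at -0.01, *Dclk2* at -0.03, *Kif5c* at -0.02 and *Dync1h1* at -0.06. *Dync1h1* was at -0.02 with edgeR and with DESeq2. Among the fits with libraries left out, the range was -0.01 to 0.18 for *Dclk1*, -0.08 to 0.18 for *Nde1*, -0.05 to 0.01 for *Ndel1*, -0.09 to 0.29 for *Map1b* and -0.11 to 0.04 for *Cdk5*. It was -0.02 to 0.20 for *Tubb2a*, -0.01 to 0.08 for *Dclk2*, -0.12 to 0.04 for *Mapt*, -0.13 to 0.25 for *Dync1h1* and -0.04 to 0.12 for *Kif5c*. The *Nde1* to *Ndel1* ratio changed to -0.04 without the libraries numbered 1 and that of *Tubb3* to *Tubb5* to -0.02 without dKO replicate 2. The cause of these reversals was not tested.

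Members at an unadjusted *P*-value under 0.05 numbered 4 with limma, 3 with edgeR and 4 with DESeq2, and related genes 14, 12 and 15. Of the related genes, 1 was called by DESeq2 (*Ttc5*) and 1 without dKO replicate 1 (*Tbca*, adjusted p = 0.0498 from limma, and 0.0948 to 0.798 otherwise). Over all features the count of 19 became 7 without trend and robust, 202 with DESeq2, 9 with the replicate block and 5 to 46 with libraries left out (46 without dKO replicate 1), and unadjusted counts were 2181, 2256 and 2201. Members with every dKO library above numbered 6 without WT replicate 1 or without both libraries numbered 1 (where *Ndel1* was below), and 0 with quantile normalization. *Khdrbs3* had an adjusted p of 0.0891 from limma without trend and robust and of at most 0.00924 otherwise. The *Cdk5* to *Cdk5r1* ratio was not run, since *Cdk5r1* had no matched row.

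The labels do not say whether the replicate numbers pair the libraries. Over the tested features, same-numbered libraries deviated with correlations of 0.098, -0.228 and -0.079. With the replicate block 0 members were called. The unadjusted limma p went from 0.0103 to 0.00142 for *Tubb2b* and from 0.0381 to 0.00865 for *Tubb5*. It rose for *Nde1* (0.577 to 0.61) and *Ndel1* (0.882 to 0.883) and fell for the other members. With 3 libraries a group, standard errors of the members ran from 0.07 to 0.21 on the log2 scale, and differences of that size were not detectable.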
